A study of Mus musculus with 22 samples.

Results

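Broad H3K4me3 domains in chow-fed mouse liver are described here as the peaks of the chow H3K4me3 list that were 4000 bases or longer. Of the 13065 H3K4me3 peaks, 783 met this rule (5.99%). Another 5839 peaks were 2000 to under 4000 bases long and 6443 were under 2000 bases. Length alone chose the domains, and all positions are on the mouse build mm9. The H3K27ac and H3K4me1 peaks that overlapped the domains were then followed in both diets.

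Trimethylation of histone H3 at lysine 4 (H3K4me3) marks the promoters of genes that are active or held ready for activity. Most such peaks span only the few nucleosomes around a transcription start, but some spread far into the gene body. Broad H3K4me3 domains are known for lying at genes of cell identity and at heavily transcribed genes. Acetylation of H3 at lysine 27 (H3K27ac) is found at active promoters and enhancers. Monomethylation of H3 at lysine 4 (H3K4me1) is typical of enhancers and of the shoulders of promoters, where the trimethylated form gives way to it.

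The livers came from wild type C57BL/6J mice that were 24 weeks old and had been fasted overnight. One group was kept on chow, and the other was switched at 8 weeks of age to a high-fat diet for 16 weeks. Chromatin immunoprecipitation sequencing (ChIP-seq) was available for 2 chow H3K4me3 libraries, and for 3 chow and 3 high-fat-diet libraries each of H3K27ac and H3K4me1. The high-fat diet has no H3K4me3 library in the data used here, so whether the domains themselves changed was not analysed. Control libraries were made with non-specific IgG, 1 pool per diet. The labels do not say that the replicates of a group are separate animals, and p-values measure only the spread between these libraries. Whole liver was used, so fewer cells of a type and less of a mark per cell cannot be told apart.

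The peak lists were called on pooled libraries and carry no replicate error. After filtering, the H3K4me3 pool held 41368069 tags (mapped reads) and the chow IgG pool 13827021. Counts per library in the union peaks, the peaks of both diets merged by the authors, summed to between 2037101 and 5772962 for H3K27ac and between 5487592 and 7380206 for H3K4me1. The shallowest H3K27ac library, high-fat diet replicate 1, stood apart from the rest, with rank correlations of 0.943 to 0.965 across union peaks; all other pairs were at 0.969 or above. For H3K4me1, correlations were 0.956 to 0.966 with high-fat diet replicate 1 and 0.949 to 0.976 with replicate 2. No batch is named in the labels, and the directories in the list headers differ by diet; diet and any batch along it cannot be told apart. In the messenger RNA of livers of the same study, summed hepatocyte markers were at 90095 to 109876 CPM (counts per 1000000 counts of a library) and T and B cell markers at 0.914 to 2.17. Alb alone, at 62009 to 78414 CPM, made up most of the hepatocyte sum. Within that list, Cps1 and Cyp3a11 were lower and Ttr higher in every high-fat-diet library than in any chow library. The other hepatocyte genes overlapped between the diets.

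The median enrichment of the domains was near that of shorter peaks. Their lengths ran from 4000 to 13831 bases with a median of 4831, and 443 were under 5000 bases, 264 from 5000 to under 7000, and 76 at 7000 or more. The enrichment reported by the authors' peak caller, the fold over the local background, had a median of 28.75 in the domains, against 29.04 in peaks of 2000 to under 4000 bases and 29.05 in those under 2000. Tag density was 532 tags per kilobase at the median, against 642 and 569 in the shorter classes. Together the domains covered 4138571 bases, which was 14.1% of the bases and 12.9% of the tags in all H3K4me3 peaks. The summit, the base of highest signal, lay a median of 1553 bases from the nearer edge. That was 30.8% of the domain's length, against 38.4% and 41.0% in the shorter classes, where 50% would be the exact centre.

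**Figure D1:**
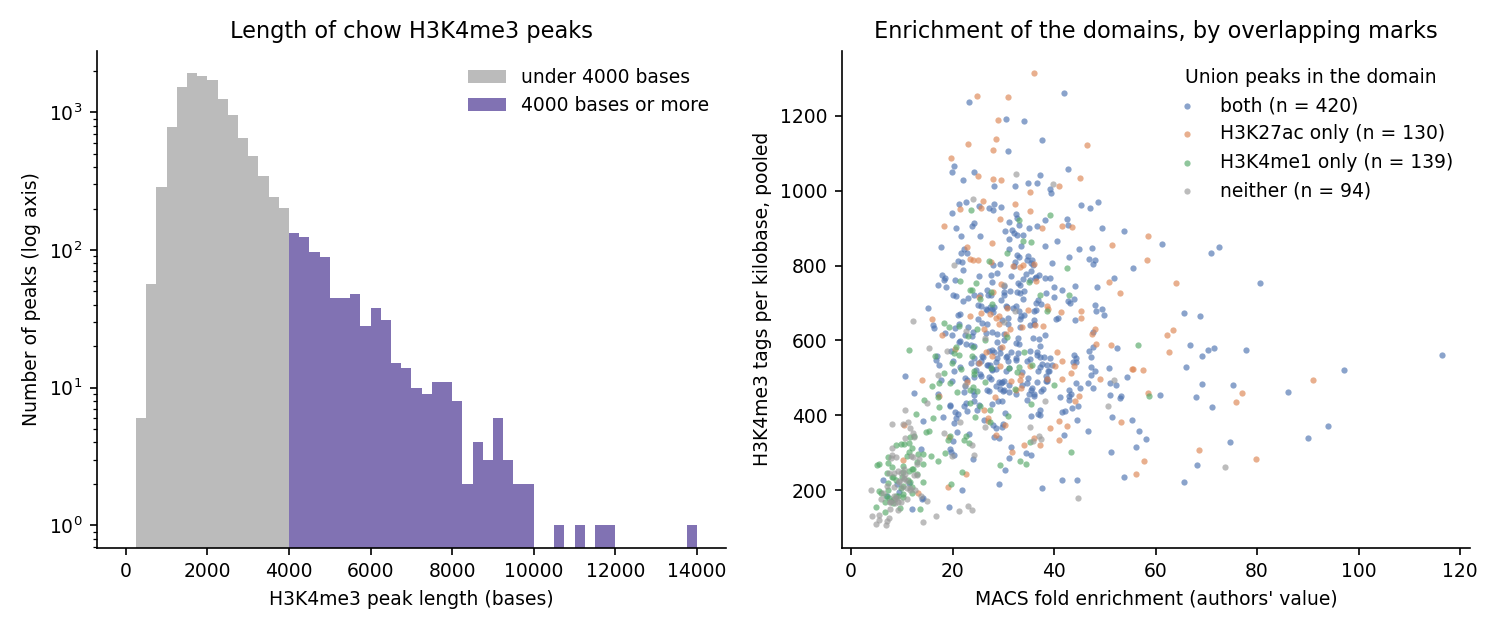
Left, number of chow H3K4me3 peaks (log axis) by length in bases, with the 783 peaks of 4000 bases or more coloured. Right, H3K4me3 tags per kilobase against the authors' fold enrichment for each domain, coloured by the union peaks that overlap it; domains with neither mark or with H3K4me1 only crowd the lower left corner.

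The longest domain, chr6:90410861-90424691, spanned 13831 bases with 10273 tags and a fold of 39.92. H3K27ac union peaks covered it completely and H3K4me1 peaks covered 78.9% of it. The second, chr5:143574293-143586155, spanned 11863 bases and held 13468 tags, the most of any domain, at 1135 tags per kilobase and a fold of 37.67. The third, chr7:108468419-108479960 (11542 bases), had a fold of 53.13 and the fourth, chr19:5839642-5850873 (11232 bases), a fold of 28.79. All 4 were completely covered by H3K27ac, and H3K4me1 union peaks covered 67.8% to 78.9% of each. By the chow list alone, H3K4me1 cover was 27.7% at the domain on chromosome 5 and 67.7% to 78.9% at the others. By the high-fat-diet list alone it was 44.0% at the domain on chromosome 19 and 63.3% to 77.5% at the others.

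The next 6 by length were less alike. The domain chr2:26436257-26446996 (10740 bases) had a fold of only 7.20 and carried H3K4me1 over 61.5% of its length but no H3K27ac peak. The domain chr4:151872960-151882853 (9894 bases), with 119 tags per kilobase and a fold of 5.53, overlapped neither mark. The domain chr2:172978364-172987991 (9628 bases, fold 13.91) overlapped an H3K27ac union peak over 64.7% of its length and no H3K4me1 peak. That cover came from the high-fat-diet list, and no peak of the chow H3K27ac list overlapped the domain. Both marks were present at chr2:27531072-27540894 (9823 bases, fold 32.99), chr1:36123839-36133427 (9589 bases, fold 25.54) and chr12:25777077-25786501 (9425 bases, fold 65.99). The high-fat-diet lists had no H3K4me1 peak in chr2:26436257-26446996 or chr12:25777077-25786501, and no H3K27ac peak in chr1:36123839-36133427.

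The highest folds were 116.41 at chr2:122059323-122063652, 97.09 at chr15:98859377-98863512, 93.90 at chr11:86397363-86401559, 91.05 at chr3:98083960-98089811 and 89.95 at chr1:134212180-134216526. These 5 domains were 4136 to 5852 bases long, and each overlapped an H3K27ac peak. The lowest folds were 3.86 at chr8:111468816-111476581, 4.12 at chr18:74088476-74096330 and 4.86 at chr16:90050712-90056678. These 3 domains were 5967 to 7855 bases long and overlapped neither mark. The densest domains were chr5:22937883-22942123 with 1314 tags per kilobase, chr17:34253192-34261087 with 1261 and chr19:26678212-26682944 with 1254. The domains on chromosomes 5 and 19 carried H3K27ac without H3K4me1, and the one on chromosome 17 had both marks, with H3K4me1 over 15.4% of its length. The authors' score, -10 times the log10 of the p-value, was at its ceiling of 3100 in 675 of the 783 domains, and 761 had a false discovery rate of 1% or less.

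The length limit cut through a continuous distribution. The shortest domains included were chr13:40954949-40958948 (4000 bases, fold 44.68), chr15:82207629-82211632 (4004 bases, fold 37.13) and chr11:48682758-48686763 (4006 bases, fold 20.29). The longest peaks left out, at chr17:8475305-8479302, chr18:80908687-80912684 and chr3:52071082-52075079, were all 3998 bases long, with folds of 26.05, 6.18 and 18.27. Inside the limit, the peak of 4000 bases overlapped neither mark and the other two both. Outside it, the peaks on chromosomes 17 and 3 overlapped H3K27ac only and the one on chromosome 18 H3K4me1 only.

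Domains were found on all autosomes and on chromosome X, but not among the 4 peaks of chromosome Y. Their share of a chromosome's H3K4me3 peaks was highest on chromosome 11 (83 of 1070, 7.76%) and chromosome 8 (52 of 674, 7.72%). It was lowest on chromosome X (7 of 394, 1.78%), and on the autosomes it did not go below the 4.04% of chromosome 3 (26 of 644). Most domains stood alone: the median gap to the next domain was 440088 bases, and 96 of the 783 had another within 50000 bases. A shorter H3K4me3 peak or another domain lay within 2000 bases of 92.

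In 3 places, 3 domains followed each other with gaps of at most 20000 bases. On chr17:57362083-57390627 the domains were 4413 to 5678 bases long with folds of 20.06 to 33.46, and all 3 overlapped both marks. On chr7:20260586-20287538 they were 5588 to 7546 bases long with folds of 23.43 to 58.75, and all 3 carried H3K4me1 while none carried H3K27ac. On chr11:69207844-69234495 they were 4501 to 7260 bases long with folds of 24.04 to 46.70, with H3K27ac at 1 and H3K4me1 at 2.

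Most domains carried the other marks. A union peak of H3K27ac overlapped 550 of the 783 by at least 1 base (70.2%), and one of H3K4me1 overlapped 559 (71.4%). Both marks were present at 420 domains (53.6%), H3K27ac alone at 130 (16.6%), H3K4me1 alone at 139 (17.8%) and neither at 94 (12.0%). The corresponding shares of peaks of 2000 to under 4000 bases were 62.4% with H3K27ac, 55.6% with H3K4me1 and 17.2% with neither. For peaks under 2000 bases they were 39.5%, 36.7% and 40.7%. A longer interval has more room to be overlapped, so the summit base alone was also used. At the summit, H3K27ac was present in 69.3% of the domains against 62.3% and 39.4% in the shorter classes. H3K4me1 was present at the summit of 52.7% against 48.3% and 35.2%. The order of the classes was the same at the summit as over whole peaks, but for H3K4me1 the gap between the domains and the middle class was smaller there. These shares come from pooled lists and were not tested.

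The H3K27ac peaks usually enclosed the domain, while H3K4me1 peaks more often left part of it bare. Union peaks of H3K27ac covered 400 domains completely and 15 by under 50%. Those of H3K4me1 covered 230 completely and 82 by under 50%. The lowest H3K27ac cover above 0 was 27.9%, at chr8:41947004-41952491, which had a fold of 53.13. The lowest H3K4me1 cover above 0 was 0.84%, at chr5:122160712-122165091, where H3K27ac covered the whole domain. A second H3K27ac peak was found in 18 domains, while 100 domains held 2 H3K4me1 peaks and 2 domains held 3.

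**Figure D2:**
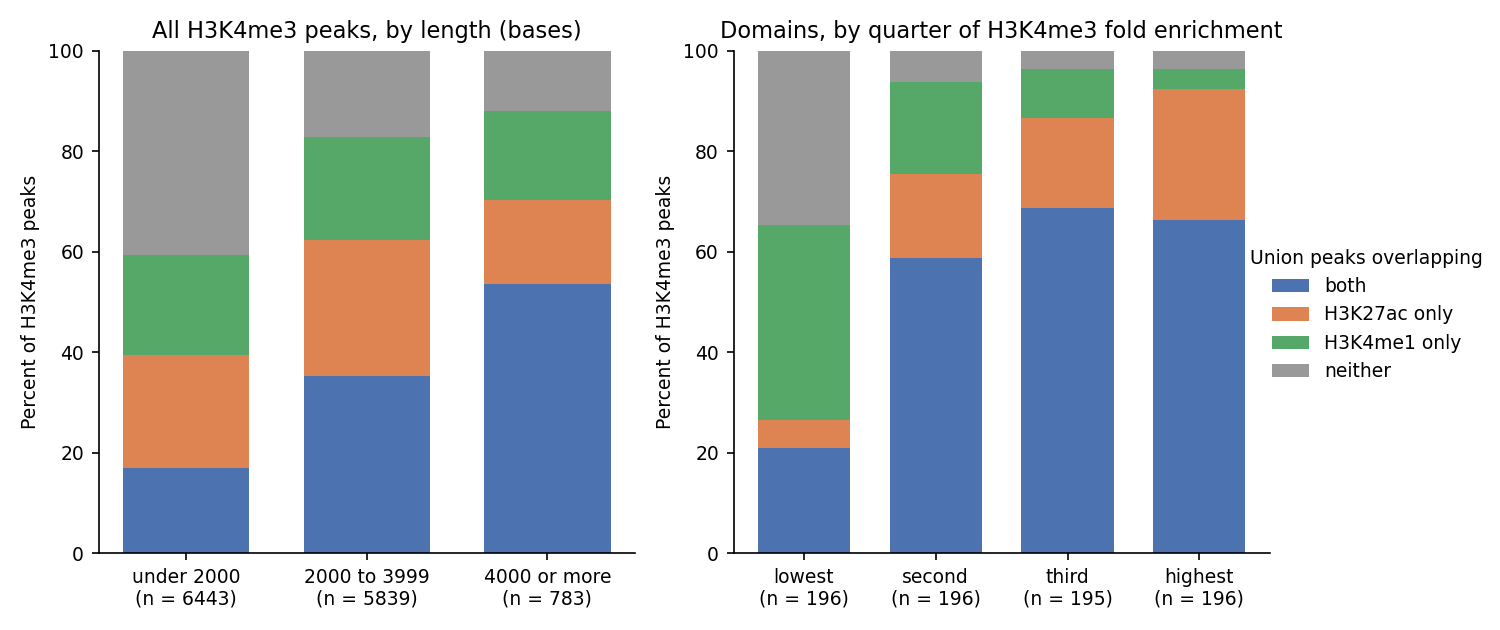
Percent of H3K4me3 peaks that overlap union peaks of both marks, of H3K27ac only, of H3K4me1 only or of neither, by length class of all 13065 peaks (left) and by quartile of fold enrichment among the 783 domains (right). The share with neither is 34.7% in the bar of lowest fold and 6.12% in the next.

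Within the domains, the share with an H3K27ac peak was higher in each quartile of H3K4me3 enrichment than in the one below, which was not so for H3K4me1. In the quartile of lowest fold (median 11.69, 196 domains), 26.5% overlapped an H3K27ac union peak and 34.7% overlapped neither mark. In the next 3 quartiles, H3K27ac was present in 75.5%, 86.7% and 92.3%, and neither mark in 6.12%, 3.59% and 3.57%. The fold and the chow H3K27ac list used the same chow IgG pool and so are not independent. In the high-fat-diet H3K27ac list, called against the other IgG pool, the shares from lowest to highest quartile were 20.9%, 60.7%, 70.3% and 73.0%. Median tag density was 271, 592, 641 and 552 per kilobase in the same order. The part of the IgG background in the trend was not tested. For H3K4me1, 59.7%, 77.0%, 78.5% and 70.4% of the quartiles overlapped a peak, from lowest to highest. At the summit base, H3K4me1 was present in 56.1%, 63.3%, 52.8% and 38.8%, lowest in the domains of highest fold. Of the 64 domains with a fold under 10, H3K27ac overlapped 4, H3K4me1 alone 27 and neither mark 33, and their median tag density was 193 per kilobase. Of the 590 with a fold of 20 or more, 501 overlapped H3K27ac and the median density was 586.

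Not every domain without the other marks was weak. The domain chr2:31324469-31333814 was 9346 bases long with 648 tags per kilobase and a fold of 30.14, and overlapped no union peak of either mark. With chr2:26436257-26446996 and chr4:151872960-151882853 it made up the 3 longest domains without H3K27ac. With chr4:151872960-151882853 and chr2:172978364-172987991 it made up the 3 longest without H3K4me1. An interval missing from a list does not show that the mark was absent. The authors' false discovery filter removed 51854 chow H3K27ac sites and 65578 chow H3K4me1 sites, and kept 9651 and 15355.

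H3K4me3 density went with H3K27ac density but not with H3K4me1 density across the 420 domains that had both marks. Tags per kilobase of H3K4me3 and chow CPM per kilobase of the overlapping H3K27ac peak had a Pearson's r of 0.56 and a Spearman's rho of 0.54. With H3K4me1, r was 0.02 and rho 0.05. The values share libraries within each mark and the peaks differ in extent, so no p-value is given.

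Around the summits, H3K27ac cover was highest at the centre, while H3K4me1 cover was nearly flat and slightly higher 1400 to 1500 bases away. In the chow list, H3K27ac peaks covered the summit of 60.9% of the domains, 59.0% of positions 1000 bases away, 50.5% at 2000 bases and 31.2% at 4000. H3K4me1 peaks covered 46.0% of summits, 45.0% at 500 bases, and reached their maximum of 47.8% at 1400 bases before falling to 31.7% at 4000. In the high-fat-diet list, H3K4me1 cover was 30.3% at the summit, 29.2% at 500 bases and highest at 1500 bases, with 32.7%. In both lists the cover within 1500 bases of the summit differed little, with its lowest value at 500 bases and not at the summit itself. In H3K4me3 peaks of 2000 to under 4000 bases, chow H3K4me1 cover was instead highest at the summit (43.8%) and fell to 24.5% at 2000 bases.

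**Figure D3:**
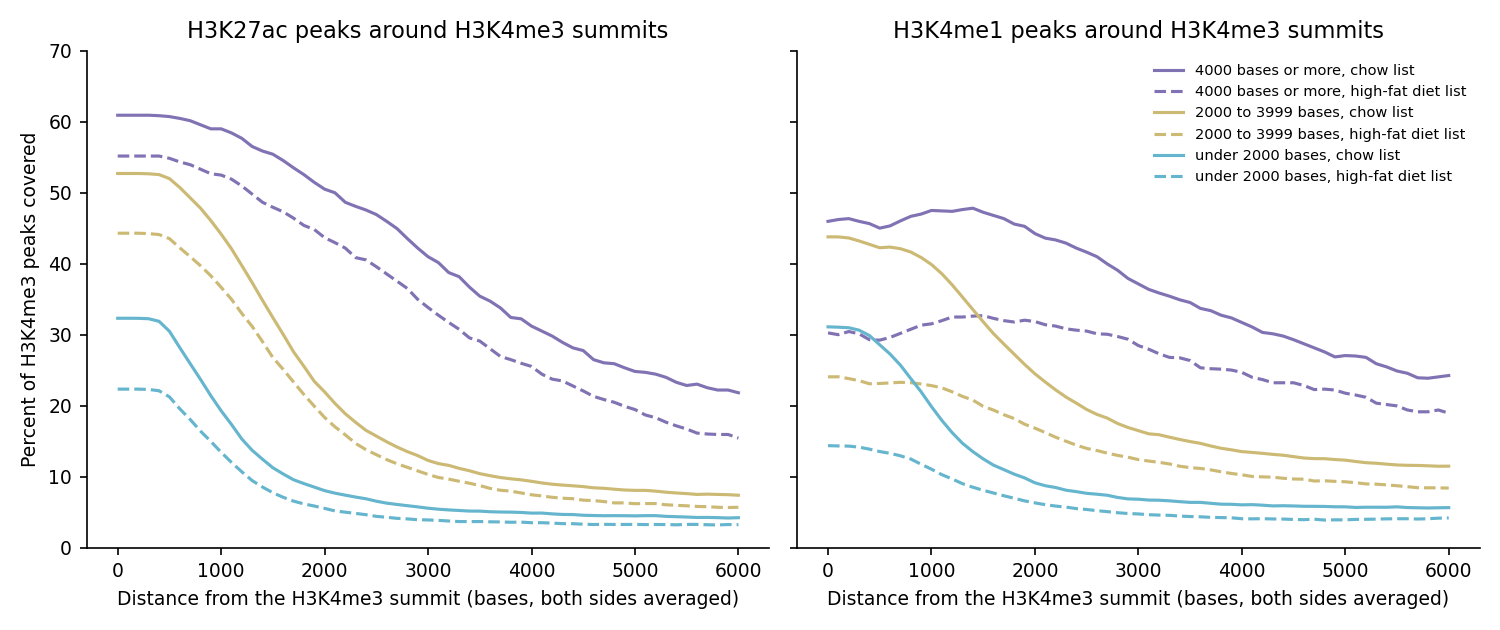
Percent of H3K4me3 peaks covered by H3K27ac peaks (left) and H3K4me1 peaks (right) at each distance from the H3K4me3 summit in bases, for 3 length classes and the list of each diet (solid, chow; dashed, high-fat diet). The H3K4me1 curves of the peaks of 4000 bases or more reach their maximum 1400 to 1500 bases from the summit.

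In most single domains the H3K4me1 peak held the summit. Of the 499 domains overlapped by the chow H3K4me1 list, 360 had their summit inside an H3K4me1 peak and 139 outside. A summit outside was found in 389 of 2946 for H3K4me3 peaks of 2000 to under 4000 bases and 78 of 2083 for those under 2000. In 29 domains, H3K4me1 peaks lay on both sides of a bare summit, against 17 and 1 in the more numerous shorter classes. Shorter peaks have less room for a bare or flanked summit, so these counts depend on length. The median distance from summit to nearer edge was 1553 bases in the domains, against 956 and 611. For H3K27ac, 8 of 485 listed domains had a bare summit and none was flanked on both sides. In the high-fat-diet H3K4me1 list, 124 of 361 domains had a bare summit and 15 were flanked.

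A larger share of the domains than of shorter peaks was listed in both diets. The lists are pooled, so this was not tested. A longer interval has more room to be overlapped by both lists, not always at the same place. The summit base alone was not used for this comparison. The H3K27ac lists of both diets overlapped 375 domains, the chow list alone 110, the high-fat-diet list alone 65 and neither 233. Of the 485 domains in the chow H3K27ac list, 77.3% were also in the high-fat-diet list, against 66.0% and 47.2% in the shorter classes. For H3K4me1, both lists overlapped 301 domains, the chow list alone 198, the high-fat-diet list alone 60 and neither 224. Of the 499 in the chow H3K4me1 list, 60.3% were also in the other list, against 46.9% and 33.7%. The high-fat-diet lists were shorter throughout, with 6852 against 9651 H3K27ac peaks and 8616 against 15355 H3K4me1 peaks. They also started at different scores. The lowest score kept was 759 for H3K4me1 in chow and 1069 on the high-fat diet, and 998 and 910 for H3K27ac. With a score of at least 1100 asked of both diets, a limit added after seeing the data, H3K4me1 overlapped 54.7% of the domains in chow and 45.6% on the high-fat diet, in place of 63.7% and 46.1%. With the same limit, H3K27ac overlapped 59.5% in chow and 52.5% on the high-fat diet, in place of 61.9% and 56.2%. The difference between the diets was thus smaller for H3K4me1 but not for H3K27ac.

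At single domains, list membership and the counts per library could differ. The domain chr1:36123839-36133427 was overlapped by H3K27ac in the chow list only. Its H3K27ac union peak had 556, 591 and 557 CPM in the 3 chow libraries and 627, 595 and 586 CPM in the 3 high-fat-diet libraries. The level was thus no lower on the high-fat diet, where the list has no peak (log2 fold change 0.08, SE 0.07, edgeR adjusted p = 0.63). Among the 118 H3K27ac union peaks in domains that overlapped the chow list only, the median log2 fold change, high-fat diet against chow, was 0.0075, and 2 rose and 2 fell, beside 1.91% of all union peaks that passed. Among the 248 such H3K4me1 peaks the median was -0.10, and 7 fell, beside 1.56% of all that passed in either direction. Both lists come from the same libraries as these counts, so choosing chow-only peaks builds in a lean toward lower values on the high-fat diet. For the 73 H3K4me1 peaks of the high-fat-diet list only, the median was -0.019, and 2 fell. For the 65 such H3K27ac peaks it was 0.060, and 2 rose and 1 fell, beside the same shares of all.

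H3K27ac in the domains was nearly level between the diets. Counts were compared with edgeR's quasi-likelihood test over all union peaks of a mark, at a Benjamini-Hochberg adjusted p under 0.05. The 550 domains with H3K27ac held 564 union peaks, and all of them entered the test. Of these, 6 rose and 3 fell on the high-fat diet (1.60%), beside 1.91% of all 11235 H3K27ac union peaks. In all union peaks 1.2% rose and 0.712% fell. With libraries scaled by their total counts alone, 3 rose and 4 fell, beside 1.73% of all. The median log2 fold change of the 564 was 0.0070, beside -0.0068 for all union peaks, and their values ran from -0.51 to 0.61. Libraries did not overlap between diets at 107 of the 564 (19.0%), beside 19.3% of all. Without high-fat diet replicate 1 there were 7 calls (2.32% of all union peaks passed). Without replicate 2 there were 25, of which 17 rose and 8 fell (3.93% of all), and without replicate 3 there were 3 (0.668% of all). Without chow replicate 1, 2 or 3 the calls were 1, 3 and 1, beside 0.409%, 0.988% and 0.392% of all. In the authors' deposited table, 9 of the 564 peaks passed, 5 higher and 4 lower, beside 1.77% of all; 6 of the 9 were also called here.

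H3K4me1 in the domains leaned lower on the high-fat diet, by little. The 559 domains with H3K4me1 held 659 union peaks, all tested. Of these, 14 fell and 1 rose (2.28%), beside 1.56% of all 16834 H3K4me1 union peaks, of which 0.879% fell and 0.683% rose. The median log2 fold change was -0.065 in the 659 peaks and 0.0074 over all. It was -0.054 in the union peaks that overlapped shorter H3K4me3 peaks only and 0.049 in those that overlapped none. The sign was positive in 213 of the 659 (32.3%), beside 36.0% of the union peaks that overlapped shorter H3K4me3 peaks only and 51.7% of all. With libraries scaled by their total counts alone, 12 fell and 3 rose, beside 1.63% of all. Libraries did not overlap between diets at 154 of the 659 peaks (23.4%), beside 22.0% of all. In the authors' deposited table, 21 passed, 18 lower and 3 higher, beside 2.45% of all, and 15 of them were also called here.

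The number of H3K4me1 calls rested on single libraries. Without high-fat diet replicate 1, 144 of the 659 peaks passed, 121 lower and 23 higher, beside 12.1% of all union peaks. Without chow replicate 1, 2 or 3, the calls were 2, 3 and 7, beside 0.279%, 0.202% and 0.386% of all. Without high-fat diet replicate 2 they were 3 (0.469% of all), and without replicate 3 they were 20, of which 18 fell (1.59% of all). In each of these 6 fits more of the domains' H3K4me1 peaks fell than rose. The lean was not particular to the domains. Without high-fat diet replicate 1, 629 fell and 92 rose of the 5545 union peaks that overlapped shorter H3K4me3 peaks only (13.0%). Median total counts per peak were 3898 in the domains, 1927 in those peaks and 1632 over all, so the shares are not matched for depth.

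**Figure D4:**
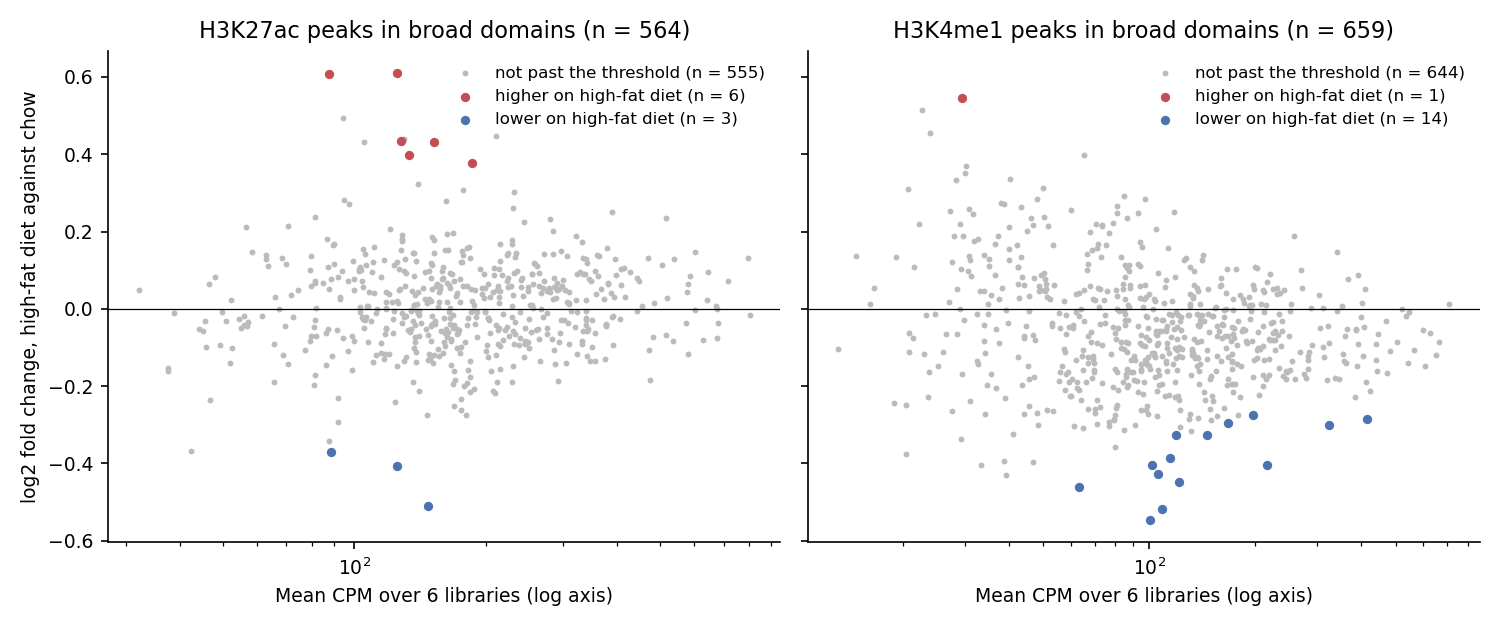
Log2 fold change, high-fat diet against chow, against mean CPM over 6 libraries (log axis) for the 564 H3K27ac peaks (left) and 659 H3K4me1 peaks (right) in broad domains; colours mark edgeR adjusted p under 0.05. The H3K27ac points centre on 0, and 14 of the 15 called H3K4me1 peaks lie below it.

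The share of a library's counts that fell in the domains' peaks was compared as well. For H3K27ac it was 11.3%, 11.7% and 11.8% in the chow libraries and 11.5%, 11.7% and 11.7% in the high-fat-diet libraries. The groups overlapped, and the means differed by 0.028 percentage points (exact permutation test, two-sided, p = 1.0, n = 3 per diet). For H3K4me1 it was 8.96%, 9.04% and 8.73% in chow and 8.68%, 8.34% and 8.63% on the high-fat diet. Here every chow library was above every high-fat-diet library, with means of 8.91% ± 0.16 and 8.55% ± 0.18 (SD, n = 3). The exact permutation test gave p = 0.1, two-sided, the smallest that 3 against 3 libraries allow. The domains' peaks were 5.02% of the H3K27ac union peaks and 9.65% of their bases, and 3.91% of the H3K4me1 union peaks and 7.27% of their bases.

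Markers of exocrine pancreas, a neighbouring organ, differed between the diets in the messenger RNA. Of the 8 genes listed, all were in the table, and their summed level was 1303, 567 and 214 CPM in the chow libraries and 22.1, 128 and 9.54 CPM on the high-fat diet. Prss1 was at 0 to 0.16 CPM in chow and at 0 on the high-fat diet, and Amy2a5 at 0.16 to 0.95 and 0 to 0.35. Every other gene of this list was higher in each chow library than in any high-fat-diet library. Ctrb1, for example, was at 394, 163 and 62.1 CPM in chow and 0.42, 37.3 and 0.45 CPM on the high-fat diet. The part of these cells in the differences between the ChIP libraries was not tested. Kupffer cell markers (3 of 4 genes in the table) summed to 133 to 242 CPM in chow and 160 to 267 on the high-fat diet, and stellate cell markers to 226 to 229 and 120 to 231. Endothelial markers summed to 97.1 to 154 and 104 to 184 CPM, and cholangiocyte markers to 7.26 to 9.87 and 6.37 to 10.1. For each of these lists the ranges of the summed levels overlapped between the diets. Within the stellate list, Dcn made up most of the sum, at 192 to 205 CPM in chow and 97.2 to 171 on the high-fat diet. Col1a1 went the other way, at 1.61 to 3.44 and 4.46 to 33.1 CPM. Neither gene overlapped between the diets, while Lrat and Des did.

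The strongest H3K27ac increase in a domain was at the union peak chr17:34322414-34326793, over a domain of 4201 bases with a fold of 31.58. It had 88.8, 102 and 109 CPM in chow and 196, 133 and 140 CPM on the high-fat diet, with no overlap and replicate 1 highest. The level was 1.53-fold higher (log2 fold change 0.61, SE 0.12, edgeR adjusted p = 0.0068). Without high-fat diet replicate 1 the log2 fold change was 0.45 and the call held (edgeR adjusted p = 0.0012). It was lost without chow replicate 1, with an adjusted p of 0.10.

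At chr7:133843387-133850039, over a weakly enriched domain (fold 7.13), the increase lay mainly in 1 library. The values were 75.0, 75.5 and 60.8 CPM in chow and 161, 84.7 and 88.8 CPM on the high-fat diet (log2 fold change 0.61, SE 0.16, edgeR adjusted p = 0.048). Without high-fat diet replicate 1 the log2 fold change was 0.32 and the adjusted p 0.062, and DESeq2 gave an adjusted p of 0.46.

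The other 4 increases of H3K27ac were smaller. They were at chr8:73130508-73136531 (110 ± 6.61 CPM in chow and 151 ± 32.5 on the high-fat diet, SD, n = 3), chr9:61218192-61223344 (131 ± 10.4 and 177 ± 25.0), chr7:107640669-107647709 (116 ± 5.44 and 155 ± 29.9) and chr11:117636474-117646405 (162 ± 9.54 and 213 ± 28.0). Their log2 fold changes were 0.43, 0.43, 0.40 and 0.38, with edgeR adjusted p of 0.045, 0.018, 0.049 and 0.026. In all 4, high-fat diet replicate 1 was the highest library. Without that library chr8:73130508-73136531 and chr7:107640669-107647709 missed the threshold, with edgeR adjusted p of 0.056 and 0.071. Each of the 4 calls held in 1 to 3 of the 6 fits that left out 1 library.

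The 3 decreases of H3K27ac began with chr7:31143903-31150185, which covered 74.6% of a domain of 6352 bases. It had 160, 179 and 176 CPM in chow and 97.9, 130 and 127 CPM on the high-fat diet, with no overlap. The level was 1.43-fold higher in chow (log2 fold change -0.51, SE 0.09, edgeR adjusted p = 0.0055), and 5 of the 6 fits that left out 1 library kept the call. At chr1:72868632-72877495 the values were 142, 146 and 136 CPM against 94.9, 111 and 110 (log2 fold change -0.41, edgeR adjusted p = 0.014). At chr1:137714075-137720299 they were 92.6, 97.5 and 105 CPM against 71.8, 75.3 and 80.1 (log2 fold change -0.37, edgeR adjusted p = 0.030). DESeq2 did not call this last one (adjusted p = 0.068). The 2 calls on chromosome 1 each held in 2 of the 6 fits.

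For H3K4me1, the largest decrease was at chr9:48638357-48643749, over 69.0% of a domain of 6202 bases with a fold of 32.64. The chow libraries were at 119, 118 and 118 CPM and the high-fat-diet libraries at 78.2, 79.0 and 85.7 CPM. The replicates were tight and far apart: 1.46-fold higher in chow (log2 fold change -0.55, SE 0.09, edgeR adjusted p = 0.0012). The call held in all 6 fits that left out 1 library, with a highest adjusted p of 0.019.

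The next was chr1:137713814-137720506, at the domain chr1:137714646-137718880, whose H3K27ac peak also fell. It had 123, 131 and 128 CPM in chow and 80.8, 84.1 and 101 CPM on the high-fat diet (log2 fold change -0.52, SE 0.09, edgeR adjusted p = 0.0037). This call too held in all 6 such fits. The domain was short (4235 bases) and weak in H3K4me3, with 632 tags and a fold of 11.97, and both marks covered it completely.

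The 4 next decreases had smaller margins. They were at chrX:45695045-45699558 (72.7 ± 5.01 CPM in chow and 52.8 ± 8.60 on the high-fat diet, SD, n = 3), chr9:61218197-61223380 (139 ± 6.98 and 102 ± 13.0), chr2:152220185-152225406 (121 ± 7.29 and 90.3 ± 9.57) and chr18:38758324-38763515 (115 ± 6.82 and 87.2 ± 12.4). Log2 fold changes were -0.46, -0.45, -0.43 and -0.40, with edgeR adjusted p of 0.028, 0.0086, 0.014 and 0.029. No chow library overlapped a high-fat-diet library at any of the 4, and each call was lost in at least 3 of the 6 fits that left out 1 library. The other 8 called decreases had log2 fold changes of -0.40 to -0.27. The 1 increase, at chr17:33914912-33917250, was of 23.0, 21.3 and 27.1 CPM in chow to 38.0, 31.9 and 34.3 CPM (log2 fold change 0.54, SE 0.13, edgeR adjusted p = 0.026), and its call held in 3 of the 6 fits.

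**Figure D5:**
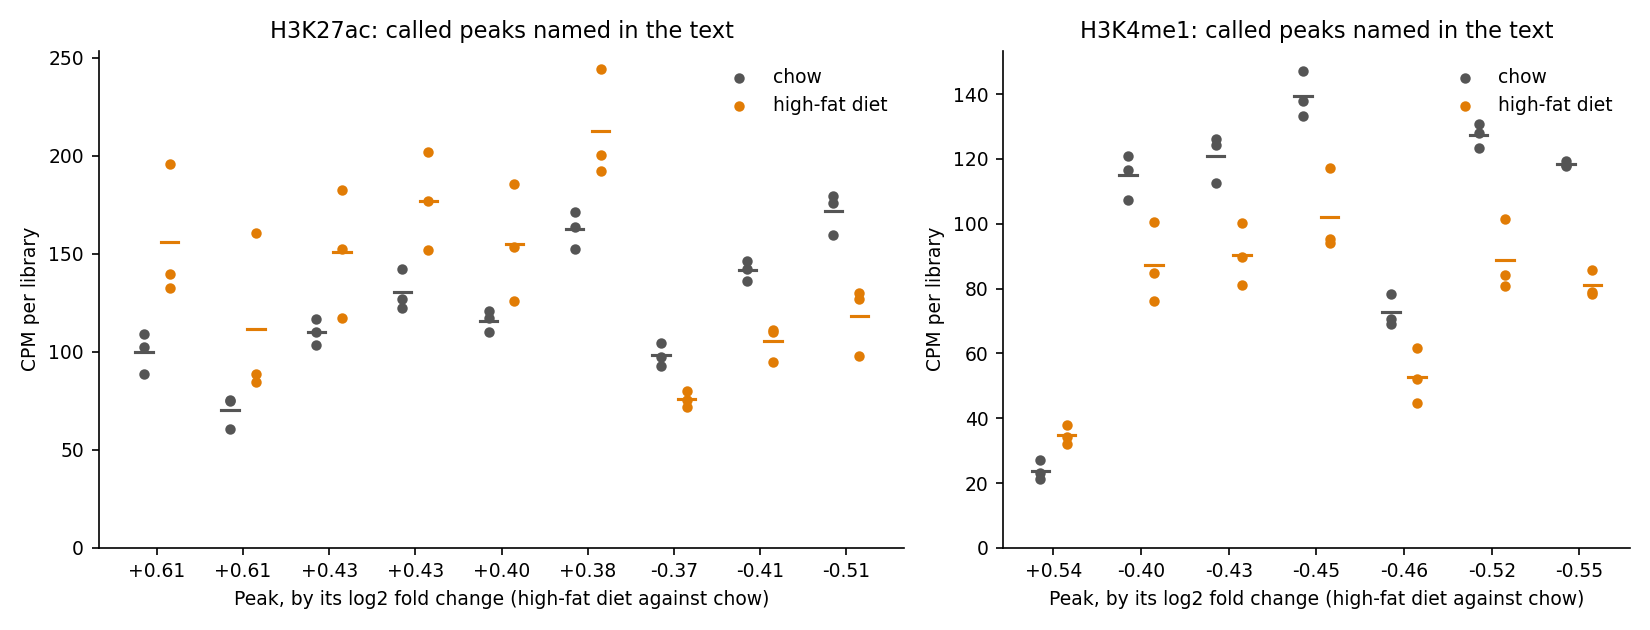
CPM per library (points) and their mean (bars) in chow and high-fat diet for the called H3K27ac peaks (left) and the 7 named H3K4me1 peaks (right), ordered and labelled by log2 fold change. High-fat diet replicate 1 is the topmost point of each called H3K27ac increase, and the diets do not overlap at any peak shown.

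Both marks passed the test in 2 domains. At chr1:137714646-137718880 both were lower on the high-fat diet, as given above. At chr9:61218221-61222920, a domain of 4700 bases with a fold of 23.62, they moved in opposite directions. H3K27ac was at 122, 142 and 127 CPM in chow and at 202, 152 and 177 CPM on the high-fat diet, while H3K4me1 was at 147, 138 and 133 CPM and at 94.1, 95.3 and 117 CPM. The 2 peaks covered the whole domain. No domain held called peaks of 1 mark in opposite directions.

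Across the 420 domains with both marks, the changes of H3K27ac and H3K4me1 were unrelated (r = -0.0026, rho = -0.013). H3K27ac was higher and H3K4me1 lower on the high-fat diet in 150 domains, both were lower in 126, both higher in 74, and H3K27ac lower with H3K4me1 higher in 70. These are signs of fitted values, most of which did not pass the test.

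The longest and the most enriched domains showed no called change. At the longest, chr6:90410861-90424691, H3K27ac was at 584, 583 and 574 CPM in chow and at 499, 612 and 580 CPM on the high-fat diet (log2 fold change -0.04, SE 0.07, edgeR adjusted p = 0.88). Its H3K4me1 peak was at 284, 304 and 300 CPM against 242, 266 and 290 CPM (log2 fold change -0.16, SE 0.07, edgeR adjusted p = 0.24). At the most enriched, chr2:122059323-122063652, the 2 H3K27ac peaks had log2 fold changes of -0.04 and 0.05, with SE of 0.10 and 0.13. The smallest log2 fold change that passed in a domain was -0.37 for H3K27ac and -0.27 for H3K4me1.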

How the data were processed

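The study profiled mouse liver on chow or a high-fat diet; the samples used here are the H3K4me3, H3K27ac and H3K4me1 libraries, with messenger RNA used for cell type markers only. Per the submitters' processing notes, the tools for ChIP were MACS 1.4.0rc2, Bowtie 0.12.7, DESeq2 and bedtools, and those for RNA were HTSeq, TopHat 1.4.0, bedtools and DESeq2 1.0.18, with mm9 as the build. Per the file headers, the authors called peaks on pooled libraries against that diet's IgG pool, limiting the p-value to 1e-06, and retained those with a false discovery rate, in percent, of 10 or less. The deposited lists give tag counts, length, a score and a fold enrichment (a ratio) per peak. The deposited union peak and gene tables hold raw counts. The authors' deposited tables of log2 fold changes and p-values from DESeq2 were used only where named.

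Domains were chosen by length, and overlap meant at least 1 shared base. The union peaks of each mark were fitted separately (R 4.3.3, edgeR 4.0.16; filterByExpr, which removed no peak, TMM factors, quasi-likelihood test, two-sided, diet as the only term), with Benjamini-Hochberg adjustment over all union peaks. CPM is per 1000000 TMM-scaled counts. The fit was also run on simulated counts with planted changes. No outlying library was simulated, so that run does not bear on calls that rested on 1 library. Alternatives were DESeq2 1.42.0, total-count scaling, no filter, a replicate block, each library left out, other length limits and other overlap rules. Named were the 10 longest domains, the 5 of highest and 3 of lowest fold, the 3 of highest density, those nearest the length limit, the longest lacking a mark, those least covered, the 6 largest called changes per mark and direction, and domains where both marks were called. Members and lists were chosen with earlier results of these data known. Genes and base sequences at the domains were not analysed here, since the reference tables used are of another build.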

Additional observations from a re-analysis of the deposited data

How the results depend on the processing

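Calls in the domains depended on which libraries entered, as did calls over all union peaks. With each library left out in turn, called H3K27ac peaks ranged from 1 to 25 (9 with all libraries). Of all H3K27ac union peaks, 0.392% to 3.93% passed in these fits. Called H3K4me1 peaks ranged from 2 to 144 (15 with all), and 0.202% to 12.1% of all H3K4me1 union peaks passed. No call changed sign. Domains of 3000 bases or more held 14 called H3K27ac peaks of 1383 (1.01%) and 29 called H3K4me1 peaks of 1536 (1.89%). Those of 5000 or more held 4 of 247 (1.62%) and 9 of 329 (2.74%). With all libraries, 1.91% of all H3K27ac and 1.56% of all H3K4me1 union peaks passed. DESeq2 called 8 and 12 (1.34% and 1.06% of all union peaks), and total-count scaling 7 and 15 (1.73% and 1.63%). The difference in H3K27ac share ranged from -0.12 to 0.11 percentage points with 1 library left out, and was 0.18 in domains of 3000 bases or more, -0.00053 in domains of 5000 bases or more and -0.0011 with 50% of the union peak inside the domain; the H3K4me1 share stayed lower on the high-fat diet in each alternative run. Of the 16 named peaks, none changed sign in any alternative; 2 missed the threshold with DESeq2, 3 with total-count scaling, and 3 to 13 with 1 library left out.

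The labels do not say that equal replicate numbers stand for 1 animal, so the numbers were not taken to pair the libraries. Deviations of same-numbered libraries correlated at 0.02, -0.13 and 0.09 for H3K27ac and 0.06, -0.14 and -0.13 for H3K4me1. Those of differently numbered libraries ran from -0.16 to 0.13 and from -0.17 to 0.27. Deviations from a mean of 3 libraries depend on each other, so these values cannot decide whether libraries were paired. A replicate block gave 12 called H3K27ac peaks (9 higher, 3 lower), beside 1.74% of all union peaks, and 21 called H3K4me1 peaks (3 higher, 18 lower), beside 2.13% of all.

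Domains with either mark, 88.0%, came to 90.9% at 5000 bases or more and 85.2% at the summit base. H3K27ac overlap was 66.7% at 3000 bases or more. H3K4me1 overlap was 67.6% at 3000 or more, 77.6% at 5000 or more, 60.9% with 50% of the domain covered and 52.7% at the summit. Diet-list peaks with a false discovery rate of 1% or less overlapped 24.0% (either), 1.79% (H3K27ac) and 23.1% (H3K4me1). That limit removes the best-scored peaks: those at a score of 3100 carry a rate of 2.07% in the chow and 6.51% in the high-fat-diet H3K27ac list, and 1.25% and 3.01% in the H3K4me1 lists. A score of 1500 or more, chosen after seeing the data, gave 79.3%, 60.2% and 55.7%.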
